A study of Mus musculus with 24 samples.

Results

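The livers described here carry the ΔRRE mutation of *Bmal1* and were compared between the subjective day and the subjective night. All libraries labelled ΔRRE were taken, which gave 12 of the 24 liver libraries of the series, and they were divided by the time point in their titles. The 6 libraries of CT2, CT6 and CT10 form the day and the 6 libraries of CT14, CT18 and CT22 the night, with 2 libraries at each circadian time (CT, hours of the internal day). The 12 WT libraries of the same time points are used for comparison only. All mice were male and of the C57BL/6 strain. ΔRRE mice carry, in both copies of *Bmal1*, a CRISPR-Cas9 deletion of the pair of binding sites for REV-ERB and ROR proteins near the start of the gene. The mutants come from 1 edited line, and the controls are WT mice without the deletion. Tissue RNA was collected from mice of 8 to 24 weeks from 26 h after the start of constant darkness, and the ages of the mice sequenced here were not given separately. The labels do not say whether the 2 libraries of a time point came from separate mice, so the p-values measure the spread between these libraries.

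The mammalian clock is built of feedback loops. The protein made from *Bmal1* pairs with CLOCK and turns on genes that carry an E-box, a short DNA element. Some of these genes encode repressors of that pair, the PER and CRY proteins, and others encode REV-ERB proteins. An RRE is a site at which REV-ERB lowers and ROR raises the activity of a gene, and *Bmal1* normally has such sites, which are missing here. In the liver, rhythms of feeding, body temperature and glucocorticoids drive further day and night genes, such as those of lipid synthesis and heat shock proteins.

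The unit is FPKM, the fragments of a gene scaled by transcript length and library size, and differences are on the scale of log2(FPKM + 0.1), day minus night, so that a positive value is higher by day. On this scale the change of weakly expressed genes is understated. A gene was tested if its average over the 24 libraries reached 1 FPKM, which 11244 of 54733 did. At this limit, *Tnxb* had a mean of 1.0 FPKM and was tested, and *Zc3h12c* with 0.9999 FPKM was not. The ΔRRE libraries summed to between 556432 and 590725 FPKM. Their depth relative to the first library, read from the commonest ratio of the values of rarely detected genes, lay between 0.929 and 1.26, and the number of reads behind a value is unknown. Libraries of the same time point correlated across genes with r from 0.955 to 0.974, against 0.926 to 0.970 for other pairs. The markers of hepatocytes summed to between 49450 and 62070 FPKM in the 12 libraries, and *Alb*, which encodes albumin, ranged from 18570 to 32020 FPKM.

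*Arntl*, the gene that encodes BMAL1 and that the mutation alters, was flat. The ΔRRE day libraries had 2.1, 3.08 and 4.21 FPKM as lowest, median and highest values, and the night libraries had 2.49, 2.97 and 3.83 FPKM. The ranges of day and night thus overlapped. The difference was 0.01 ± 0.13 (SE) on the log2 scale, with an adjusted p of 0.968 from limma. In an exact two-sided permutation test over all 924 divisions of the 12 libraries into 6 and 6, 862 were at least as large (p = 0.933). The smallest p this test allows is 0.002165. Over the time points, the ΔRRE means (n = 2) lay between 2.30 ± 0.28 FPKM (SD) at CT10 and 3.61 ± 0.85 FPKM at CT6, a ratio of 1.57. In WT they ran from 0.143 ± 0.073 FPKM at CT10 to 12.9 ± 0.41 FPKM at CT2, a ratio of 90.2, and *Arntl* was 2.35-fold higher by night (difference -1.23 ± 0.18, limma adjusted p = 0.00856). All 6 ΔRRE means thus lay between the lowest and the highest WT mean. *Arntl* lies at chr7:113207465-113314126 on the plus strand (mm10).

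With *Arntl* flat, 95 genes were higher by day and 98 were higher by night at an adjusted p under 0.05 (limma, Benjamini-Hochberg), or 0.845% and 0.872% of the genes tested. At an unadjusted p under 0.05 there were 2087 genes in both directions. The day genes differed by a median of 1.57-fold and the night genes by a median of 1.84-fold, and 13 day genes against 41 night genes differed by more than 2-fold. Leading the day genes was *Nr1d1*, a repressor of the RRE loop, with 9.57-fold. Among the night genes were *Thrsp*, a regulator of lipid synthesis, with 6.13-fold, the heat shock gene *Hspa1b* with 5.20-fold and the clock repressor *Per2* with 4.10-fold. The 3 night genes with larger differences than *Thrsp* were short and near the level limit, namely *Snord14d* and *Snord35a*, which encode small nucleolar RNAs, and the histone gene *Hist2h3c1* (differences -3.31, -2.67 and -2.71, means 1.86, 1.43 and 1.56 FPKM). They were chosen for mention after their values were seen.

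The test sets the difference of the day and night means against the spread between the 2 libraries of a time point. A gene can therefore be called although its day and night libraries overlap, as long as the libraries of a time point lie close together. When the time point was left out of the model and 6 libraries were set against 6, no gene passed (lowest adjusted p = 0.0510, limma), with 1595 genes at an unadjusted p under 0.05. Of the 193 genes, 177 were among these. With 2 libraries at every time point both models give each gene the same difference, so its direction could not change. Without CT18 no gene was called either, although 192 of the 193 had an unadjusted p under 0.05, and without CT22 the counts were 270 by day and 292 by night. Leaving out 1 library at a time, the day count ranged from 6 to 159 and the night count from 7 to 133. Both were lowest without replicate 1 of CT18 and highest without replicate 1 of CT14. All 193 genes kept their direction and an unadjusted p under 0.05 without any single library. Since the 193 were chosen on these same libraries, their counts at an unadjusted p are a description and no support. An adjusted p under 0.05 was kept in each of the 12 fits by 8 genes, among them *Nr1d1*, *Cry1*, *Per2*, *Rcan1*, *Tfrc* and *Thra*.

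The called genes were not spread evenly over the 3 time points of their part of the day. Of the 95 day genes, 41 had their highest mean at CT6, 40 at CT10, 6 at CT2 and 8 at CT22. Their lowest mean was at CT14 for 51 genes, at CT18 for 40 and at CT22 for 4. Of the 98 night genes, 54 were highest at CT18 and 36 at CT14, and 50 were lowest at CT10 and 42 at CT6. CT2 and CT22, which flank the subjective dawn, thus often held intermediate values in both sets. All 95 day genes and all 98 night genes kept their direction between CT6 and CT18, whereas 71 and 78 did so between CT10 and CT22. Since these genes were chosen on the same libraries, these counts are a description.

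**Figure D1:**
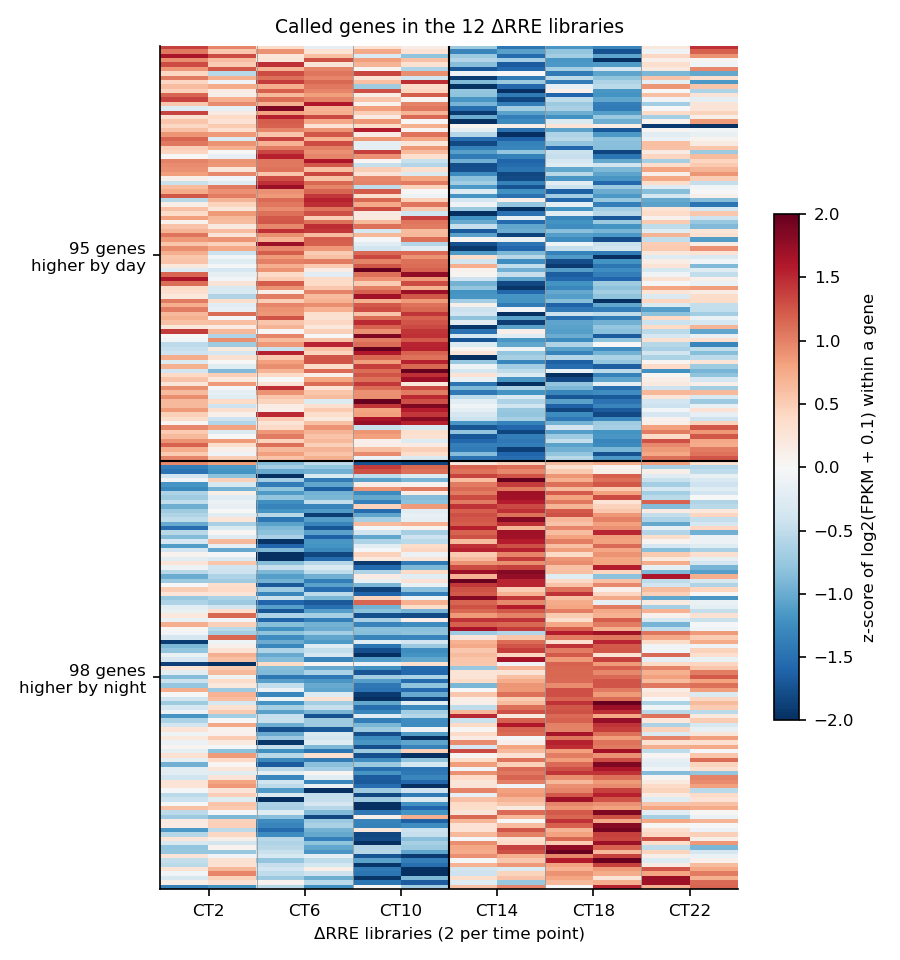
Heat map of the 193 genes called between day and night in ΔRRE liver. Columns are the 12 ΔRRE libraries in order of circadian time, rows are genes ordered by time point of highest mean, and the colour is the z-score of log2(FPKM + 0.1) within a gene. The lowest mean is at CT14 or CT18 for 51 and 40 of the 95 day genes and at CT10 or CT6 for 50 and 42 of the 98 night genes, while 2 night genes are highest at CT10.

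Tests of single time points 12 h apart take the same libraries without averaging over the day or the night. Between CT2 and CT14, 217 genes differed (1.93% of those tested, limma adjusted p under 0.05), 146 of them higher at CT2. Between CT6 and CT18, 68 genes differed (0.605%), 20 of them higher at CT6. Between CT10 and CT22, 139 genes differed (1.24%), of which 44 were higher at CT10. Of the 95 day genes, 28, 18 and 7 passed in these 3 tests, and of the 98 night genes 18, 38 and 26 passed.

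The core clock was followed through 18 genes, of which 17 were tested. Of these, 1 was higher by day and 4 by night, against 0.845% and 0.872% of all genes tested. The night count fell to 2 without any one of replicate 1 of CT2, replicate 2 of CT14, replicate 1 of CT18 and replicate 1 of CT22, and to 0 without CT18. Without single libraries, *Nr1d1*, *Per2* and *Cry1* were called in all 12 fits, *Ciart* in 7 and *Per1* in 4. *Nr1d1*, which encodes REV-ERBα, had 2.81, 30.1 and 50.4 FPKM as lowest, median and highest day values and 0.691, 1.46 and 6.64 FPKM by night. In 5 of the 6 day libraries the level exceeded every night library, the exception being 1 library of CT2. The difference was 3.26 ± 0.33 (limma adjusted p = 0.00520), and its value in WT was 3.46 (adjusted p = 0.00330). *Nr1d1* went from 40.8 FPKM at CT6 to 0.981 FPKM at CT18, a ratio of 41.6, against 68.8 in WT.

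The repressors *Per2* and *Cry1* were night genes. *Per2* ran from 0.782 through a median of 2.06 to 5.06 FPKM by day and from 1.91 through 14.7 to 21.2 FPKM by night, with a difference of -2.03 ± 0.24 (limma adjusted p = 0.0145). Its 4 libraries of CT14 and CT18 lay above every day library and its libraries of CT22 did not. *Cry1* ran from 1.90 through 4.31 to 13.6 FPKM by day and from 9.83 through 15.8 to 20.4 FPKM by night, with a difference of -1.70 ± 0.17 (limma adjusted p = 0.00459). In WT the differences were -1.73 for *Per2* (adjusted p = 9.95e-04) and -1.84 for *Cry1* (adjusted p = 1.55e-04), so both were called in both genotypes.

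*Per1* and *Ciart*, further repressors of CLOCK and BMAL1, were called night genes although their highest levels straddle dusk. *Per1* was at 12 FPKM at CT10 and 10.0 FPKM at CT14, and at 0.738 and 1.10 FPKM at CT2 and CT6. *Ciart* was at 18.5 and 14.1 FPKM at CT10 and CT14 and at or under 0.515 FPKM in every library of CT2, CT6 and CT22. Their day minus night values were -1.16 ± 0.19 and -1.25 ± 0.19 (limma adjusted p = 0.0258 and 0.0207). On the linear scale the means over the 6 libraries were 6.34 FPKM by day and 5.70 FPKM by night for *Ciart*. The direction of the *Ciart* call thus belongs to the log scale, and it turned to 0.10 when CT2 was left out.

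Of the 12 other clock genes tested, *Arntl* included, none was called, and several of them changed widely within the day. *Dbp*, an output factor that acts through D-boxes, went from 0.523 FPKM at CT2 to 82.7 FPKM at CT10, a ratio of 158, while its day minus night value was 0.71 ± 0.28 (limma adjusted p = 0.215). Between CT2 and CT14 it was -5.33 and between CT10 and CT22 5.28 (adjusted p = 0.00127 and 0.00107). *Tef*, a relative of *Dbp*, was likewise highest at CT10, with 61.9 FPKM at CT10, 50.8 FPKM at CT14 and 8.02 FPKM at CT2. *Nfil3*, the repressor that opposes both at D-boxes, ran the other way, with 29.2 FPKM at CT22, 27.4 FPKM at CT2 and 4.5 FPKM at CT10, and had a day minus night value of -0.42 ± 0.11 (adjusted p = 0.0898). *Npas2*, a partner of BMAL1, had 5.41 FPKM at CT2 and 5.33 FPKM at CT22 against 0.0277 FPKM at CT14. *Clock* and *Rora* had day minus night values of -0.15 ± 0.25 and 0.00 ± 0.10, which do not show whether they changed within the day. For *Clock*, replicate 1 of CT10 was at 1.83 FPKM against a day median of 5.07 FPKM. For *Dbp*, *Tef*, *Nfil3* and *Npas2*, day and night thus each held high and low time points.

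**Figure D2:**
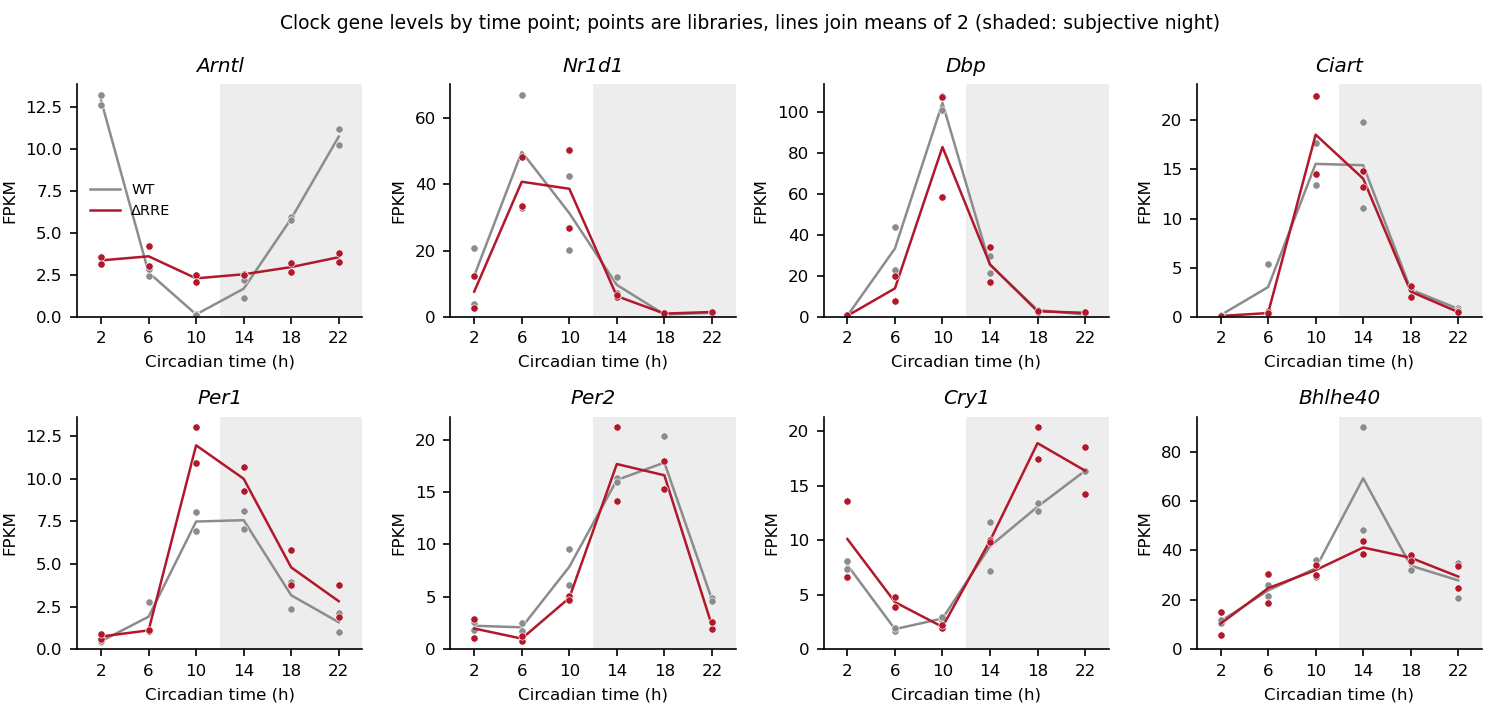
FPKM of 8 clock genes against circadian time in hours, in WT (grey) and ΔRRE (red) liver. Points are single libraries, lines join the means of 2, and the shaded part is the subjective night. The ΔRRE libraries of *Arntl* lie between 2.1 and 4.21 FPKM, whereas *Nr1d1*, *Per2* and *Cry1* keep levels that differ between day and night.

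The E-box, the binding site of CLOCK and BMAL1, was searched in the 250 bases before the start sites of the called genes. Promoters were taken from RefSeq (GRCm38.p6), which held 71 of the 95 day genes and 68 of the 98 night genes. The letters CACGTG, which read alike on both strands, were present for 15 of the 68 night genes (22.1%) and for 8 of the 71 day genes (11.3%). Over all 8226 tested genes with a promoter the share was 10.3%, and over all 32851 promoters 6.02%. Other forms of the E-box were not searched. No match was found for the called clock genes *Nr1d1* and *Per2*, nor for the called outputs *Usp2*, *Nampt*, *Noct*, *Wee1* and *Tfrc*. Whether a promoter was held for each of these is not given here. Windows are shown for the clock genes *Cry1*, *Per1* and *Ciart*, the outputs *Lonrf3* and *Tspan4*, the chaperone gene *Hsph1* and *Dusp1*. They run 5′ to 3′ on the strand of the gene with 11 bases on either side, to let the shared core and its neighbours be compared. Capitals mark the E-box.
Cry1, chr10:85185098-85185125, minus strand: gtgccggtggtCACGTGgggtgcatgcc
Per1, chr11:69098772-69098799, plus strand: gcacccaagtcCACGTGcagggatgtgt
Ciart, chr3:95882328-95882355, minus strand: gcatctagagtCACGTGttgccggtaag
Lonrf3, chrX:36328353-36328380, plus strand: gtggtaggagtCACGTGgttgcgtttta
Tspan4, chr7:141476318-141476345, plus strand: ccccatggagcCACGTGcagagccacga
Hsph1, chr5:149636318-149636345, minus strand: agcggaagtggCACGTGgaggcgccggt
Dusp1, chr17:26508582-26508609, minus strand: caccgcccggtCACGTGtctgccattca
*Ciart* had 2 further E-boxes, 44 and 58 bases before its start. The D-box letters TTATGTAA, on either strand, were present for 3 of the 68 night genes (4.41%) and 0 day genes, against 0.644% of the tested genes. The CRE letters TGACGTCA were present for 3 of the 68 night genes (4.41%), *Dusp1*, *Rcan1* and *Snrpa*, and 0 day genes. The share of the tested genes was close to that of the night genes, at 3.08%. Each match is a stretch of letters and no evidence of binding.

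The RRE core was searched as TAGGTCA or TGGGTCA on either strand. The RRE given in the paper is longer and also asks for A or T at set positions before this core. Those positions were not searched, so a match here is to the core alone. It was present for 9 of the 71 day genes (12.7%) and for 2 of the 68 night genes (2.94%), against 5.45% of the tested genes and 5.38% of all promoters. *Abcb11*, the bile salt export pump, and *Hsd3b7*, an enzyme of bile acid synthesis, were the called bile acid genes and both held it. They are shown with the core in capitals, which in *Abcb11* is on the opposite strand. In neither gene do the bases before the core match the longer RRE.
Abcb11, chr2:69342655-69342683, minus strand: ctttaggccatTGACCTAtaagcaaatag
Hsd3b7, chr7:127800586-127800608, plus strand: ccttcctggaaTGGGTCAggagg

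Another view of day and night asks that no day library reaches a night library. In ΔRRE liver, all 6 day libraries exceeded all 6 night libraries for 79 genes (0.703% of those tested) and the reverse held for 31 genes (0.276%). Of these, 18 and 10 were also called by limma, or 18.9% of the called day genes and 10.2% of the called night genes. *Thra*, which encodes a thyroid hormone receptor, had 5.93, 8.13 and 9.88 FPKM by day and 2.81, 4.29 and 5.62 FPKM by night, a difference of 0.90 ± 0.12 (limma adjusted p = 0.0159). *Thra* (chr11:98740638-98769006, plus strand) overlaps the end of *Nr1d1* (chr11:98767932-98775333, minus strand), and whether strand was used in counting is not given in the sources used here, so reads of the overlap cannot be told apart.

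Other day genes at 5 FPKM or more that were both separated and called spanned several functions. *Amdhd1*, an enzyme of histidine breakdown, had 90.6, 116 and 155 FPKM by day and 48.4, 72.0 and 90.2 FPKM by night (0.76 ± 0.15, limma adjusted p = 0.0438). *Carhsp1*, a cold shock domain protein, had 28.5, 32.9 and 35.7 FPKM against 22.3, 23.4 and 25.5 FPKM, so that its difference of 0.44 ± 0.07 was small and its spread smaller (adjusted p = 0.0252). *Ppfibp1*, *Setdb2*, *Pdcd4*, *Tradd*, *Rassf3* and *Thrap3* differed by between 0.38 and 0.84. *Pdcd4* restrains translation, *Tradd* is an adaptor of TNF signalling and *Thrap3* takes part in RNA processing. *Zfp524* and the pseudogene *Rab11b-ps2* differed by 0.65 each, and the reads of the pseudogene may belong to its parent.

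Night genes at 5 FPKM or more that were both separated and called were fewer, and 3 are described. *Alpl*, the tissue-nonspecific alkaline phosphatase, had 2.81, 3.85 and 6.08 FPKM by day and 6.58, 9.44 and 12.5 FPKM by night (-1.12 ± 0.17, limma adjusted p = 0.0207). *Pfkfb1*, the liver form of the enzyme that sets fructose 2,6-bisphosphate, had 10.3, 18.2 and 19.4 FPKM against 19.5, 26.1 and 37.3 FPKM (-0.69 ± 0.13, adjusted p = 0.0415). Its highest day library and its lowest night library nearly touched. *Lrrc58* had 6.43, 8.98 and 9.67 FPKM against 11.3, 12.3 and 15.6 FPKM (-0.54 ± 0.11, adjusted p = 0.0466). These 3 genes were higher in every night library than in any day library.

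**Figure D3:**
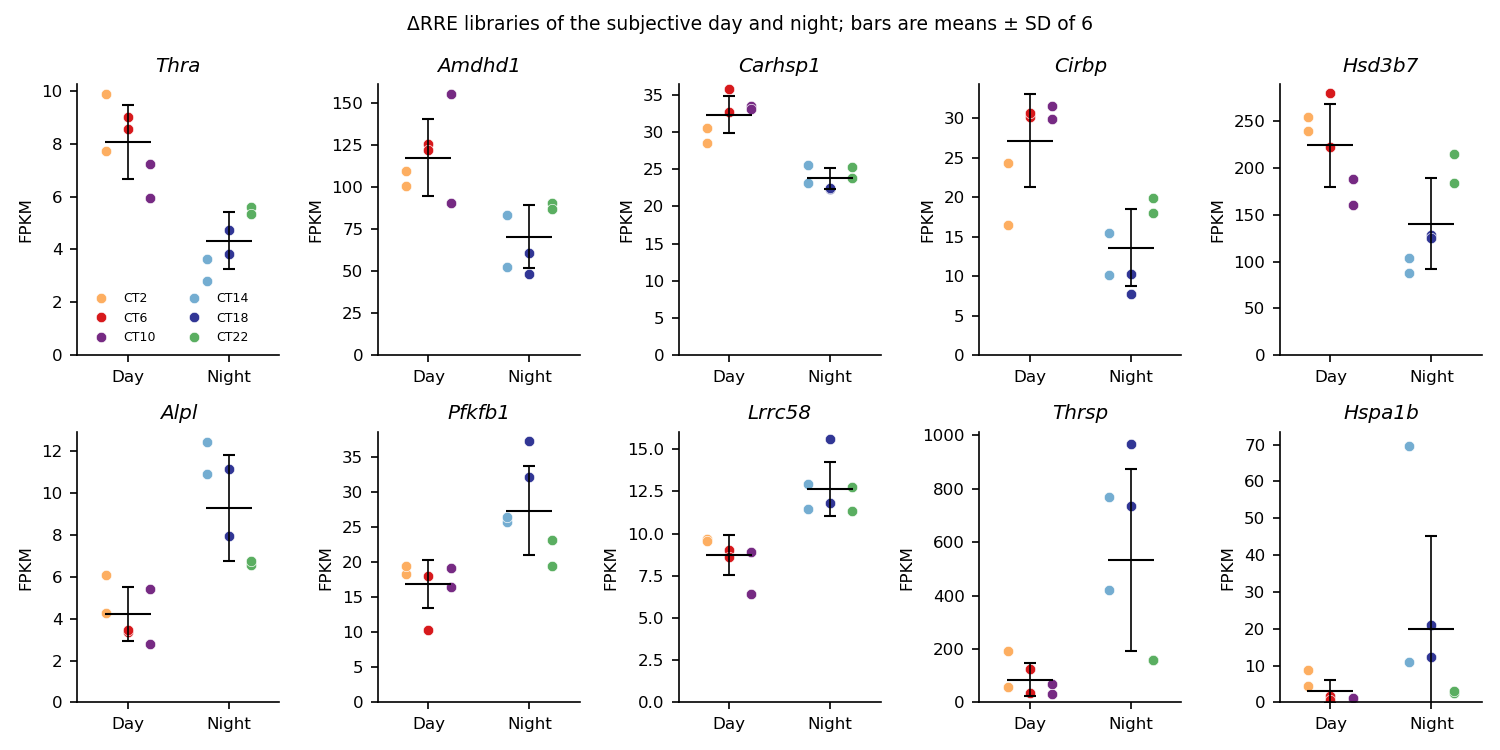
FPKM of 10 genes in the 12 ΔRRE libraries, divided into day and night and coloured by time point. Bars are means ± SD of 6 libraries. *Thra*, *Amdhd1*, *Carhsp1*, *Alpl*, *Pfkfb1* and *Lrrc58* show no overlap between day and night, whereas the CT22 libraries of *Cirbp*, *Hsd3b7*, *Thrsp* and *Hspa1b* reach into the day range, and SD bars are cut at 0 FPKM.

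Outputs of the clock in the liver were followed through 18 genes. Of these, 7 were higher by night and 0 by day, against 0.872% and 0.845% of all genes tested. The median difference of the list was -0.48, against 0.02 over all genes tested. *Tfrc*, the transferrin receptor, had 4.70, 9.26 and 10.9 FPKM by day and 6.47, 18.3 and 23.6 FPKM by night (-0.85 ± 0.08, limma adjusted p = 0.00459). Its 4 libraries of CT14 and CT18 lay between 17.5 and 23.6 FPKM and its libraries of CT22 did not exceed 6.72 FPKM, below the day median. *Usp2*, a deubiquitinase, had 0.39, 1.28 and 18.7 FPKM by day and 2.79, 10.1 and 21.2 FPKM by night (-1.82 ± 0.25, adjusted p = 0.0177), and its high day values were those of CT10. *Nampt*, the rate-limiting enzyme of NAD salvage, was at 29.2 FPKM at CT14 and at 7.52 FPKM at CT6 (-0.79 ± 0.11, adjusted p = 0.0177). The deadenylase gene *Noct*, the cell cycle kinase gene *Wee1*, *Lonrf3* and *Tspan4* made up the rest, with differences from -1.21 to -0.91. Without replicate 1 of CT18 the count of 7 fell to 1. *Rcan1*, an inhibitor of calcineurin that stands in none of the lists and was chosen after its values were seen, went from 5.25 ± 1.03 FPKM (SD, n = 6) by day to 15.8 ± 7.53 FPKM by night (-1.42 ± 0.14, adjusted p = 0.00459).

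Chaperones held 8 called night genes, the most of the 28 lists, which were chosen with earlier results of these data known. Of the 20 heat shock and cytosolic chaperone genes, 8 were higher by night and 0 by day, against 0.872% and 0.845% of all genes tested. Negative differences were found for 18, and the median was -0.77, against 0.02 over all genes tested. *Hspa1b*, an inducible HSP70, had 0.626, 1.53 and 8.90 FPKM by day and 2.50, 11.5 and 69.7 FPKM by night (-2.38 ± 0.44, limma adjusted p = 0.0365). The 2 libraries of CT14 had 10.9 and 69.7 FPKM, so that 1 library carried much of the night mean. *Hspa1a*, its near-identical neighbour, with which it can share reads, had a difference of -1.98 ± 0.43 (adjusted p = 0.0550). *Hsph1*, a partner of HSP70, had 3.41, 4.91 and 21.9 FPKM by day and 10.4, 24.9 and 61.4 FPKM by night (-1.90 ± 0.30, adjusted p = 0.0212). *Hspb1*, *Hsp90aa1*, *Dnajb1*, *Stip1*, *Fkbp4* and *Cacybp*, further chaperone and co-chaperone genes of the list, differed by between -1.49 and -0.62. In WT, 8 of the 20 were higher by night as well, and the median was -0.60. The ΔRRE count depended on single libraries, with 0 without replicate 1 of CT2, replicate 1 of CT10, replicate 2 of CT18 or replicate 2 of CT22 and 13 without replicate 1 of CT14. It was also 0 when no level filter was applied.

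Heat shock factors bind inverted repeats of GAA, searched here as GAANNTTC. These letters were present for 6 of the 68 night genes (8.82%) and 5 of the 71 day genes (7.04%), against 6.24% of the tested genes. The chaperone genes that held them are shown with the repeat in capitals.
Hspa1b, chr17:34959324-34959353, minus strand: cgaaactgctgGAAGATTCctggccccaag
Hspb1, chr5:135887791-135887820, plus strand: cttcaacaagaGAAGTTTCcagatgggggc
Fkbp4, chr6:128438789-128438818, minus strand: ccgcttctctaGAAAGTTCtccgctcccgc
*Hspb1* held a second match 97 bases before its start.

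Of 2 genes of cold-inducible RNA-binding proteins, *Cirbp* was higher by day. It had 16.5, 30.0 and 31.5 FPKM by day and 7.80, 12.9 and 19.8 FPKM by night (1.04 ± 0.14, limma adjusted p = 0.0159), and 5 of the 6 day libraries exceeded every night library. Its relative *Rbm3* had a difference of 0.03 ± 0.11 (adjusted p = 0.904), with its highest mean of 29.9 FPKM at CT10 and its lowest of 15.5 FPKM at CT22.

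Lipid and glucose genes were divided by step, and 0.872% of all genes tested were higher by night. Of 15 tested genes of fatty acid synthesis, 2 were higher by night and 14 had negative differences, with a median of -0.26. *Thrsp* had 29.8, 64.6 and 191 FPKM by day and 157, 578 and 966 FPKM by night (-2.62 ± 0.39, limma adjusted p = 0.0201). *Elovl6*, a fatty acid elongase, had 5.35, 9.98 and 14.9 FPKM against 12.1, 21.6 and 34.7 FPKM (-1.10 ± 0.16, adjusted p = 0.0198). *Fasn* and *Acly*, which make fatty acids and their acetyl-CoA, had values of -1.3 and -1.09 (adjusted p = 0.0504 and 0.0529). Of 15 tested genes of glucose output and glycogen, 2 were higher by night. *Ppp1r3b*, which directs a phosphatase to glycogen, was among them, with 37.0 ± 26.7 FPKM (SD, n = 6) by day and 86.2 ± 35.4 FPKM by night (-1.42 ± 0.27, limma adjusted p = 0.0408). Its libraries of CT2 and CT22 overlapped. Without replicate 1 of CT18 no member of either list was called.

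Bile acid genes were the metabolic list with called day genes. Of 14 genes, 2 were higher by day and 0 by night, against 0.845% and 0.872% of all genes tested, with a median of 0.15. *Hsd3b7* had 160, 231 and 280 FPKM by day and 87.8, 127 and 214 FPKM by night (0.72 ± 0.09, limma adjusted p = 0.0159). *Abcb11* had 84.8, 131 and 151 FPKM against 60.8, 86.8 and 138 FPKM (0.48 ± 0.09, adjusted p = 0.0415). *Cyp7a1*, the rate-limiting enzyme of bile acid synthesis, had a value of -0.56 (adjusted p = 0.577). Of 20 genes of drug metabolism, *Ces1d*, a carboxylesterase, was higher by night (124, 209 and 298 FPKM against 245, 423 and 594 FPKM, difference -1.04 ± 0.14, adjusted p = 0.0172). Without replicate 1 of CT18, none of *Hsd3b7*, *Abcb11* and *Ces1d* was called, nor was *Cirbp*.

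In the remaining lists few or no members were called, where 0.845% of all genes tested were higher by day and 0.872% by night. All 22 genes of cholesterol synthesis and uptake had negative differences in ΔRRE liver, with a median of -0.50, but none was called by limma, with 9 at an unadjusted p under 0.05, and the median in WT was 0.37. Of 20 genes of folding in the endoplasmic reticulum, 19 were negative with a median of -0.36, and *Hspa5*, the main chaperone there, had a value of -0.94 (adjusted p = 0.0609). Among 12 glucocorticoid-responsive genes *Dusp1*, a phosphatase of MAP kinases, was higher by night (-1.28 ± 0.26, adjusted p = 0.0432), and among 20 genes of ribosome biogenesis *Nolc1* and *Nop2* were (-0.83 and -0.58, adjusted p = 0.0350 and 0.0353). *Egr1*, an immediate-early factor, was the called member among 6 tested, higher by day (2.32 ± 0.49, adjusted p = 0.0490). Without replicate 1 of CT18, none of *Dusp1*, *Nolc1*, *Nop2* and *Egr1* was called, and *Egr1* was called in 2 of the 12 fits that left out 1 library. Its 6 night libraries ran from 0.245 to 37.7 FPKM and the highest of all 12 was 1 library of CT22, so its night range held all its day values. None of the 22 tested PPARα targets, 25 ribosomal protein genes, 21 nuclear-encoded respiratory chain genes, 15 genes of autophagy and lysosome, 15 splicing genes, 20 acute-phase genes, 8 genes of amino acid stress and 10 mitochondrial transcripts was called. Their medians were -0.07, -0.05, -0.01, 0.10, -0.03, 0.35, -0.25 and -0.11. Of these, 19 of the 20 acute-phase genes were positive, with a median of 0.12 in WT, and 24 of the 25 ribosomal protein genes were negative. Such counts of signs were not tested.

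**Figure D4:**
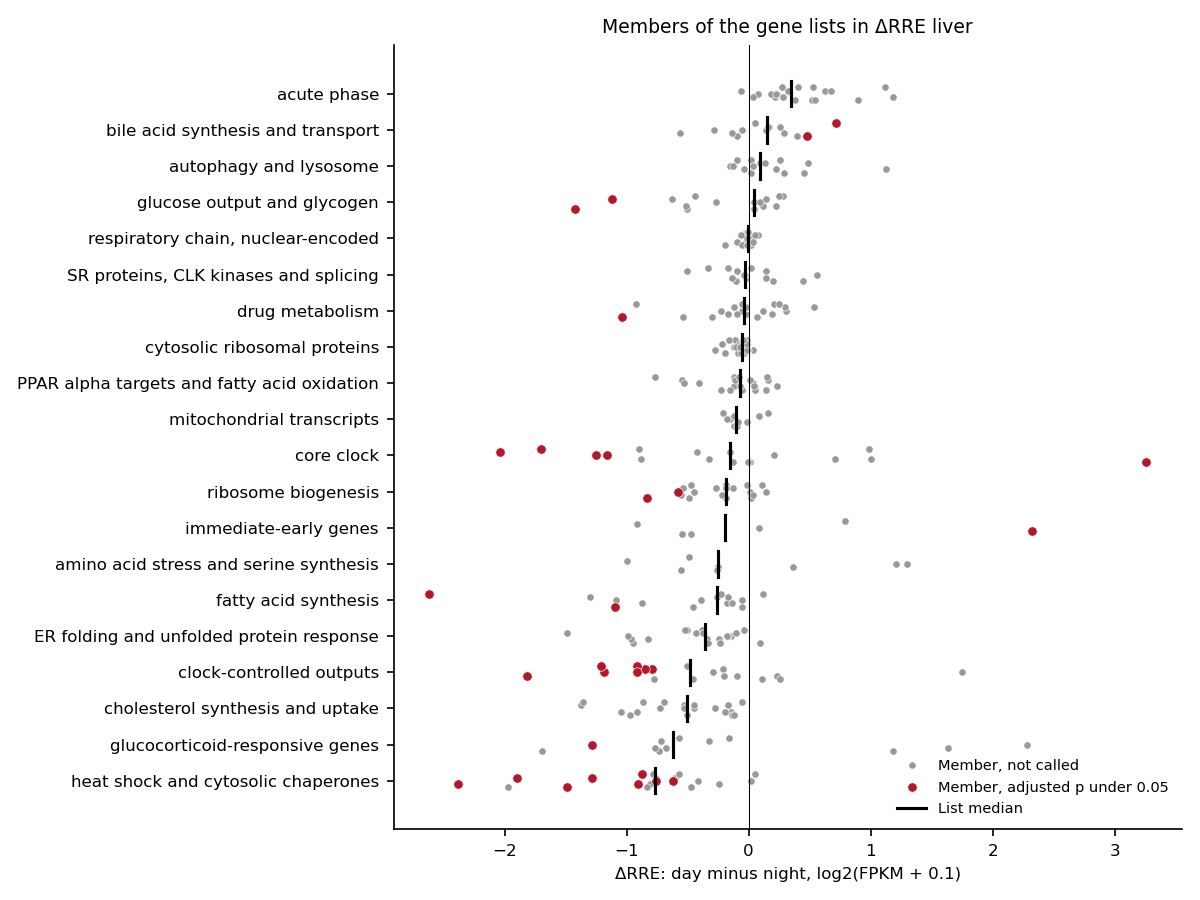
Day minus night difference in ΔRRE liver, on the scale of log2(FPKM + 0.1), for the tested members of the 20 lists with at least 5 tested genes, cell markers left out. Points are genes, red points have an adjusted p under 0.05 in limma, and black bars are list medians. Of these 20 lists, the chaperones have the lowest median, -0.77, and the acute-phase genes the highest, 0.35.

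Markers of other cells had no called members. None of the 12 hepatocyte, 10 Kupffer cell, 10 endothelial, 8 stellate cell, 3 cholangiocyte and 6 blood markers tested was called in either direction. All 10 Kupffer cell markers had negative differences, with a median of -0.19, and summed to between 57.3 and 89.5 FPKM by day and between 61.9 and 136 FPKM by night. Blood markers, mainly haemoglobin, summed to between 541 and 4326 FPKM by day and between 998 and 4465 FPKM by night. Endothelial markers summed to 38.7 to 68.6 FPKM and 38.4 to 59.4 FPKM, stellate cell markers to 50.2 to 92.8 FPKM and 58.4 to 116.9 FPKM, and cholangiocyte markers to 11.9 to 44.8 FPKM and 21.5 to 35.1 FPKM. Of the 11 pancreas and muscle markers, *Ckm*, *Cpa1*, *Ctrb1*, *Ins2* and *Pnlip* were listed at 0 in all 12 libraries, and *Cela1*, the 1 that was tested, had a value of 0.30 (limma adjusted p = 0.564). The part of these cells in the called genes was not tested, and in whole liver more cells of a type and more RNA per cell cannot be told apart.

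The same contrast in WT liver called 247 day genes (2.20% of those tested) and 161 night genes (1.43%). Both sets shared 86 genes in the same direction with ΔRRE liver, 40 by day and 46 by night. These are 42.1% of the 95 ΔRRE day genes and 46.9% of the 98 night genes, and 16.2% and 28.6% of the WT lists. No gene was called in opposite directions. Of the ΔRRE day genes, 94 of 95 had the same direction in WT and 86 had an unadjusted p under 0.05 there, and of the night genes 97 of 98 and 83. Over all genes tested, 70.9% had the same direction in both genotypes. Conversely, 240 of the 247 WT day genes and 155 of the 161 WT night genes had the same direction in ΔRRE liver, 161 and 121 of them with an unadjusted p under 0.05.

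Genes called in both genotypes with small p-values in each show what the shared set holds. By day these were *Fbxo21*, a ubiquitin ligase subunit (1.18 in ΔRRE, 1.3 in WT), *Crot*, which moves fatty acids out of peroxisomes (0.76, 1.03), *Lgals9* (0.57, 0.63), the kinase gene *Prkd3* (0.85, 1.08) and *Mtx3* (0.77, 0.77). By night they included *Ces1d* (-1.04, -0.77), *Thrsp* (-2.62, -1.76), *Tedc2* (-0.77, -0.90) and the integrin gene *Itga5* (-0.65, -0.75). The limma adjusted p of these 9 genes in ΔRRE lay between 0.0159 and 0.0214. *Crot* stood at 286 and 258 FPKM in the libraries of CT22 and at 96.2 to 111 FPKM at CT14 and CT18, so its low values were those of 4 night libraries.

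A call in 1 genotype does not show a difference between them, so the difference was tested in a fit of all 24 libraries. A single gene passed (0.00889% of those tested, limma adjusted p under 0.05), with 403 at an unadjusted p under 0.05. It was *Gm21981*, a predicted gene at chr17:47686739-47694455, with 1.81 in WT and 0.10 in ΔRRE (difference -1.71, adjusted p = 0.00316). With 1 FPKM in place of 0.1 FPKM added before the logarithm, no gene passed. *Arntl* had a difference of 1.25 ± 0.22 (limma adjusted p = 0.168). *Eepd1* was 1.17 in WT and 0.47 in ΔRRE and *Bcl2l1*, an inhibitor of apoptosis, -0.32 and 0.29, both with an adjusted p over 0.05. Among the 1867 genes whose day-night difference passed over both genotypes together, the size of the difference was smaller in ΔRRE for 56.6%, with a median change of -0.03 on the log2 scale. The 1186 of them higher by day had median sizes of 0.39 (WT) and 0.34 (ΔRRE), and the 681 higher by night had 0.46 and 0.45. Without WT replicate 2 of CT2 the median change was -0.07 and without ΔRRE replicate 2 of CT2 it was 0.01, so its sign rests on single libraries.

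**Figure D5:**
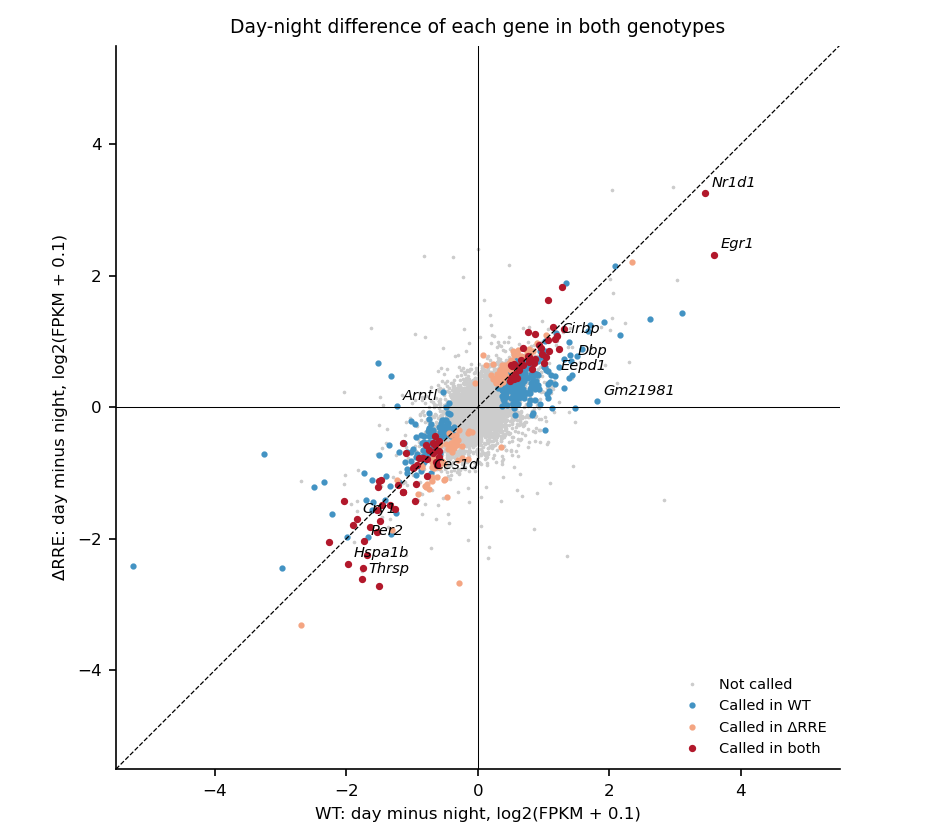
Day minus night difference of each of the 11244 genes in WT (horizontal axis) and ΔRRE (vertical axis) liver, on the scale of log2(FPKM + 0.1), with the line of equal values dashed. Dark red genes were called in both genotypes, orange genes in ΔRRE only and blue genes in WT only. *Nr1d1*, *Per2* and *Cry1* lie near the line, *Thrsp* lies at -1.76 and -2.62, *Arntl* at -1.23 and 0.01, and *Gm21981* at 1.81 and 0.10.

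Some called genes had little or no difference in the other genotype. In ΔRRE, 9 called day genes and 15 called night genes did not reach an unadjusted p of 0.05 in the same direction in WT. *Serpinh1*, a collagen chaperone, was -0.78 in ΔRRE and -0.16 in WT, and *Evi5* was 0.37 and -0.04. Their limma p-values for the difference between genotypes, unadjusted, were 0.0269 and 0.00308, and neither passed adjustment. In WT, 13 called genes had the opposite sign in ΔRRE, among them *Arntl*, the transcription factor gene *Zfp260* (-1.31 in WT, 0.48 in ΔRRE), *Haus8* (1.02, -0.34) and *Xpo7* (-0.52, 0.24). These genes other than *Arntl* were chosen after their values were seen, from lists defined by the same contrast, and their values are a description.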

How the data were processed

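Poly(A) RNA of liver was sequenced from a directional library at 6 circadian times in ΔRRE and WT mice, with 2 libraries per genotype and time point. Per the submitters' processing notes, the authors used Trimmomatic 0.39, HISAT2 2.1.0 and StringTie 1.3.5 on mm10, and deposited FPKM values per gene. Whether strand was used in counting is not given in the sources used here. The number of reads is unknown, so values carry no counting interval.

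Genes that averaged 1 FPKM or more in the 24 libraries were tested on log2(FPKM + 0.1) with limma 3.58.1 (R 4.3.3), with an intensity trend and 1 mean per time point. The contrast was the mean of CT2, CT6 and CT10 minus that of CT14, CT18 and CT22, in 12 ΔRRE libraries. WT was fitted alone, and the difference between genotypes in 24 libraries. P-values were two-sided and adjusted over all tested genes by Benjamini-Hochberg. The procedure was tested on simulated data. Groups came from sample titles.

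The comparison and the 28 gene lists were chosen with earlier results of these data known. Named genes were those of the core clock list, the largest differences per direction (up to 12) among called genes at 5 FPKM or more without overlap of day and night, the 3 members of each list with the smallest p, the 5 genes per direction best called in both genotypes, and the 5 with the smallest p for the difference between genotypes. Others are said to have been chosen after their values were seen, and so were *Hspa1a*, *Hspb1*, *Hsp90aa1*, *Dnajb1*, *Fkbp4*, *Noct*, *Wee1*, *Lonrf3* and *Tspan4*. Named genes are a selection of those the rule gave, and some genes are not reported here. Motifs were searched in RefSeq promoters of GRCm38.p6. Alternatives covered the constant added, the level filter, rescaling, the model, the threshold and the libraries and time points used.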

Additional observations from a re-analysis of the deposited data

Results flagged for a closer look

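*Gm21981* was the gene whose day minus night difference differed between genotypes in limma, by -1.71, and it also had 2 libraries far from the others, with 18.5 FPKM in replicate 2 of CT2 against a day median of 9.80 FPKM and 6.24 FPKM in replicate 2 of CT22 against a night median of 11 FPKM.

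In 266 groups of 6 libraries, 2 for each of 133 genes, 13 had 1 library far from the other 5. The limit used would flag about 1 in 20 groups of 6 independent values from 1 normal distribution. The groups here pool 3 time points, and many of the genes were chosen on these data. That rate therefore does not apply to them, and 13 cannot be set against it. Low day libraries were replicate 1 of CT10 for *Clock* (1.83 FPKM, median 5.07) and for *Lrrc58* (6.43 FPKM, median 8.98), and replicate 1 of CT6 for *Pfkfb1* (10.3 FPKM, median 18.2). Replicate 2 of CT2 was low for the splicing gene *Srsf5* (84.7 FPKM, median 122). High day libraries were replicate 1 of CT10 for *Junb* (33.2 FPKM, median 13.6) and replicate 1 of CT2 for *Ndufb5* (54.7 FPKM, median 43.6). By night, replicate 1 of CT14 was low for *Hspb1* (13.8 FPKM, median 54.6) and *Setdb2* (3.30 FPKM, median 4.61) and high for *Rpl11* (270 FPKM, median 235), and replicate 2 of CT14 was low for *Rab11b-ps2* (2.74 FPKM, median 4.17). Replicate 1 of CT22 was low for *Cry2* (9.73 FPKM, median 11.2). *Hspb1*, *Setdb2*, *Lrrc58*, *Pfkfb1* and *Rab11b-ps2* are among the called genes.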

How the results depend on the processing

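The number of called genes depended strongly on the settings. Directions could change only with the constant added, the rescaling and the libraries or time points left out. The other settings leave the difference of a gene as it is. In ΔRRE the counts of day and night genes were 50 and 61 with no level filter, 0 and 0 with 2 groups of 6 without time point, 193 and 196 in 1 fit of all 24 libraries, 40 and 60 in limma without trend, and 294 and 307 at an adjusted p under 0.1. They were 0 and 10 without CT6, 39 and 50 without CT10, 27 and 57 without CT14, 0 and 0 without CT18, and 270 and 292 without CT22, and without CT2 there were 198 night genes. Leaving out 1 library at a time gave 6 to 159 day genes and 7 to 133 night genes. In WT the day count was 160 with no filter, 80 with 2 groups, 439 in the fit of 24 libraries, 607 at an adjusted p under 0.1, and 38, 153, 112 and 22 without CT6, CT10, CT14 and CT18. The WT night count was 245 after rescaling, 44 with 2 groups, 356 at an adjusted p under 0.1, and 69, 89 and 33 without CT6, CT14 and CT18. Without single libraries these counts ranged from 53 to 244 and from 56 to 166. The genes called in both genotypes numbered 14 with no filter, 0 with 2 groups, 230 in the fit of 24 libraries, 44 without trend, 287 at an adjusted p under 0.1, and 137, 3, 57, 38, 0 and 182 without CT2, CT6, CT10, CT14, CT18 and CT22, with 11 to 113 without single libraries. For the difference between genotypes the count was 0 with 1 FPKM added, 2 with 0.01 FPKM, 11 with no filter, 0 with 2 groups, 2 without CT2, 2 without CT6, 0 without CT10, and 1 to 2 without single libraries. The median change in size was -0.0081, -0.0569, -0.0848 and 0.0283 without CT6, CT14, CT18 and CT22, and -0.0666 to 0.0105 without single libraries. *Arntl*, whose difference was 0.01, turned to -0.0031 after rescaling and to -0.0621, -0.103 and -0.0998 without CT2, CT6 and CT14, with -0.0651 to 0.0921 without single libraries. *Ciart* turned to 0.0959 without CT2. Over the combinations of a named gene other than *Arntl* and a setting, a call was lost in 690 and gained in 114, and *Ciart* without CT2 was the 1 called gene that changed direction. The cause of these changes was not tested.

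With the replicate block, the night count was 172 and the day count 140, and 192 of the 193 calls were among them. *Egr1* had an adjusted p of 0.051 there (limma), and the chaperone list had 14 night genes. Same-numbered libraries did not deviate together at every pair of time points (correlations of deviations from -0.018 to 0.305, median 0.048, over 15 pairs). These values do not settle whether the numbers pair the libraries.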
